A study of Mus musculus with 8 samples.

Results

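Collagen is modified enzymatically before and after it leaves the cell, and the expression of 10 mouse genes for these enzymes was compared between induced pluripotent stem (iPS) cells and embryonic stem (ES) cells. The genes were P4ha1, P4ha2, P4hb, P3h1, Plod1, Plod2, Plod3, Lox, Loxl1 and Loxl2, looked up by name in the platform annotation. They were chosen with earlier results of these data known. They had 18 of the 45101 probe sets on the array, and 10 of the 14005 genes tested. iPS cells are made from somatic cells by reprogramming to pluripotency, and the labels describe each of the 3 iPS lines as integration-free. The groups were iPS line 1, iPS line 2, iPS line 3 and a normal ES line as the control, with 2 Affymetrix 3' expression arrays each. All 4 were male and of strain C57BL/6, were grown in N2B27 medium with mouse leukaemia inhibitory factor, and were taken at passage 7 to 10. Each iPS group is a single line, and neither the somatic cell it came from nor the oxygen level in culture is given in the sources used here. The titles call the arrays of a line biological replicates, but no label says that they came from separate cultures, so the p-values measure only the spread between arrays, which may be technical.

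Both probe sets for Loxl2 were annotated to Gm21451 as well, and their shared signal is called Gm21451/Loxl2 here because it cannot be assigned to either gene. A probe set was tested if its signal exceeded 37.1, a floor at the 40th percentile of all signals, in at least 2 arrays. Of the 18 probe sets, 15 passed, and the 3 that failed were 2 of 3 for Lox and 1 of 2 for Loxl1. Where several passed, the probe set with the highest mean stood for the gene. These were 1452094_at for P4ha1, 1417149_at for P4ha2, 1437465_a_at for P4hb, 1421462_a_at for P3h1, 1416289_at for Plod1, 1416687_at for Plod2, 1415901_at for Plod3, 1416121_at for Lox, 1451978_at for Loxl1 and 1431004_at for the joint signal. Signals are on the linear MAS5 scale, and each is compared only with the same probe set on other arrays. Log2 differences are differences of log2(signal + 12.4), tested with limma over all 14005 genes, and a gene is called changed at a Benjamini-Hochberg adjusted p under 0.05.

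Collagen chains are modified as they enter the endoplasmic reticulum. Prolyl 4-hydroxylase, made of catalytic alpha subunits and the beta subunit protein disulfide isomerase, hydroxylates prolines and so lets the triple helix hold at body temperature. Lysyl hydroxylases mark lysines for sugar attachment and cross-linking, and lysyl oxidases outside the cell then oxidise lysines so that fibres become cross-linked. The hydroxylases need oxygen, iron and 2-oxoglutarate, and several genes of the pathway, P4ha1, P4ha2, Plod2, Lox and Loxl2 among them, are known targets of the hypoxia-inducible factors. Pluripotent mouse cells in culture are known mainly for secreting basement membrane collagen.

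The arrays were of similar quality, with 58.1% to 61.4% of probe sets above the floor. The 3'/5' signal ratio of beta-actin, which tracks RNA integrity, reached 1.74 and 1.79 in iPS line 2, against 1.49 to 1.62 in the other 6 arrays. It therefore moved with every difference of line 2 given below, and its part in them was not tested. The corresponding Gapdh ratio did not separate line 2, with 0.915 and 0.946 there and 0.857 to 0.935 elsewhere. All 10 ES cell markers, Nanog and Esrrb among them, lay above the floor in all 8 arrays. Their summed signal was 120300 to 126650 in line 1, 131680 to 133300 in line 2, 122290 to 125940 in line 3 and 124490 to 132250 in ES cells. Sums are set by the most abundant genes, and single markers moved in line 2 against ES cells: Klf4 rose by 0.30 ± 0.06, Utf1 fell by 0.86 ± 0.15 and Pou5f1, named after its value was seen, fell by 0.23 ± 0.06 on the log2 scale (limma adjusted p = 0.00167, 0.000825 and 0.0151). Of 13 fibroblast markers with a probe set, 2 lay above the floor in all 8 arrays, and Col1a1, Postn, Dcn and Fap lay at or under it in all 8. Summed over the list, fibroblast markers gave 7467.9 to 7558.8 in line 1, 6145 to 7367.6 in line 2, 8135.7 to 9472.3 in line 3 and 7091 to 7104.8 in ES cells. Vim made up most of each sum, with 7126 and 7179 in line 1 and 5558 and 6896 in line 2. Its signal was 7807 and 9119 in line 3, and 6786 and 6782 in ES cells. Pdgfrb rose in line 2 against ES cells (1.67 ± 0.31; limma adjusted p = 0.00162), the only call among the 7 fibroblast markers tested there. Of 15 primitive and parietal endoderm markers, 9 lay above the floor in all 8 arrays and Afp at or under it in all 8. Their sum was 7273.4 to 7426.2 in line 1, 7806.7 to 8232.4 in line 2, 6375.5 to 6546.3 in line 3 and 8350.6 to 8427.6 in ES cells. In line 2 against ES cells Lamb1 rose by 0.39 ± 0.08 and Col4a2 by 0.88 ± 0.26, and Sparc fell by 0.24 ± 0.06 (limma adjusted p = 0.0046, 0.0216 and 0.00897). Sparc made up most of each endoderm sum and fell in the other lines too. Against ES cells it fell by 0.26 ± 0.06 in line 1 and 0.50 ± 0.06 in line 3 (limma adjusted p = 0.0419 and 0.000577). The part of these marker differences in the results was not tested.

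Most of the calls were in iPS line 2, where P4ha1 and P4ha2 of prolyl 4-hydroxylase, the lysyl hydroxylase Plod2 and the Gm21451/Loxl2 signal rose over ES cells. Against ES cells, 4 of the 10 genes rose in line 2 and 0 fell, while 26.7% of all genes tested were called in either direction. The median difference was 0.71 over the 10 genes and 0.07 over all genes. None of the 10 genes lay near that median, which falls between Plod3 at 0.37 and Loxl1 at 1.04, neither of them called. It therefore does not describe a shift shared by the 10 genes. In line 3, 1 of the 10 genes was called lower than in ES cells, Plod2, and 0 were called higher, with 4.17% of all genes called. Its medians were -0.27 over the 10 genes and -0.01 over all genes. In line 1, limma called 0 of the 10 genes against ES cells, where 2.33% of all genes were called and 2 of the 10 passed an unadjusted p of 0.05. These comparisons share the 2 ES arrays. In bulk RNA such as this, fewer expressing cells and less RNA per cell cannot be told apart.

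**Figure D1:**
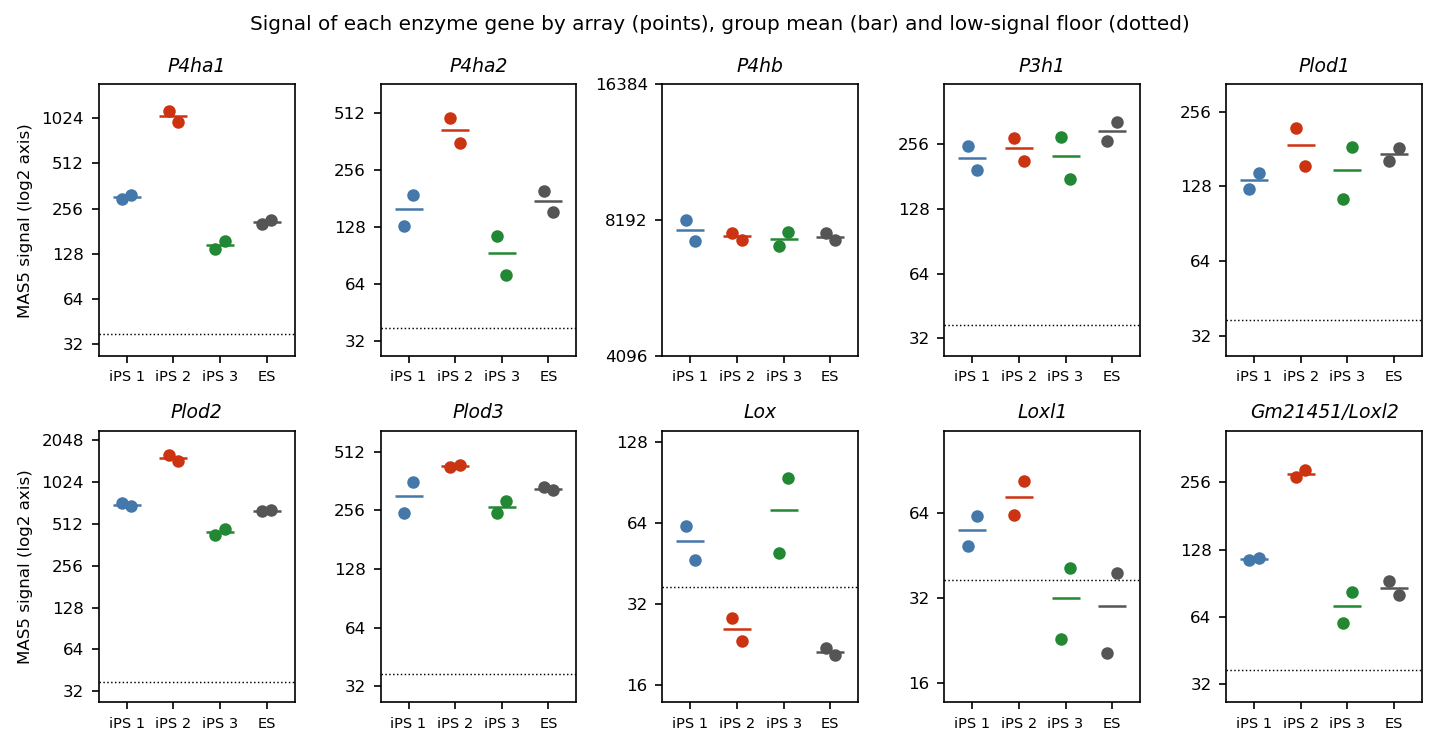
MAS5 signal (log2 axis) of the probe set standing for each of the 10 genes, in iPS lines 1, 2 and 3 and in ES cells, with points for the 2 arrays of a group, bars for their mean and a dotted line at the floor of 37.1. P4ha1, P4ha2, Plod2, Plod3 and Gm21451/Loxl2 are highest in line 2, P4hb is level across the groups, and Lox is above the floor in lines 1 and 3 only.

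P4ha1 encodes the main catalytic alpha subunit of collagen prolyl 4-hydroxylase, and it had the widest range of group means among the 10 genes, 2.75 on the log2 scale. Its signal was 297 and 313 in iPS line 1, 1151 and 966 in line 2, 137 and 156 in line 3, and 201 and 214 in ES cells. No 2 groups overlapped, and the order ran from line 2 through line 1 and ES cells down to line 3. P4ha1 rose 4.86-fold in line 2 over ES cells, a log2 difference of 2.28 ± 0.14 (SE, n = 2 arrays each; limma adjusted p = 3.28e-07). The difference from ES cells was 0.53 ± 0.14 in line 1 (limma adjusted p = 0.0739) and -0.47 ± 0.14 in line 3 (limma adjusted p = 0.0879). Neither passed the test, although both arrays of line 1 were above, and both of line 3 below, both ES arrays. The other P4ha1 probe set, 1426519_at, gave 51.9 and 64.3 in line 1, 224 and 203 in line 2, 34.8 and 24.9 in line 3, and 50.2 and 62.4 in ES cells. It too was highest in line 2, but line 1 overlapped ES cells and line 3 lay under the floor.

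P4ha2, the gene of an alternative alpha subunit, was also highest in line 2. Its signal was 130 and 189 in line 1, 486 and 355 in line 2, 114 and 71.4 in line 3, and 199 and 153 in ES cells. Line 1 overlapped ES cells, and both arrays of line 3 were lower than both ES arrays. In line 2 P4ha2 rose 2.29-fold over ES cells (1.19 ± 0.25 on the log2 scale; limma adjusted p = 0.00372). Line 3 differed from ES cells by -0.86 ± 0.25, which did not pass the test (limma adjusted p = 0.0845), and line 1 by -0.15 ± 0.25.

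P4hb encodes the beta subunit, which is also a general protein disulfide isomerase of the endoplasmic reticulum. Its signal was 8218 and 7349 in line 1, 7692 and 7417 in line 2, 7194 and 7694 in line 3, and 7689 and 7387 in ES cells. All groups overlapped, and the group means spanned 0.06 on the log2 scale. The 95% interval of the difference from ES cells was -0.10 to 0.19 in line 1, -0.14 to 0.15 in line 2 and -0.16 to 0.13 in line 3, so a shift of the size of P4ha1 in line 2 lay outside each of them. In line 2 the log2 differences from ES cells were therefore 2.28 and 1.19 for the alpha subunits and 0.00 ± 0.07 for the beta subunit.

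The promoter windows of these subunits, from RefSeq on mouse build GRCm38.p6, are shown because P4ha1 and P4ha2 moved together in line 2 while P4hb did not. The window of Plod3, a lysyl hydroxylase described below, is added, and those of P3h1 and Plod1 are not shown. Each runs 5′ to 3′ from 250 bases before to 50 bases after the annotated start, and 6 of the 10 genes had such a window. Capitals mark every ACGTG or GCGTG on either strand, the core letters of the element that hypoxia-inducible factors bind, and these matches do not overlap one another.
P4ha1, chr10:59323046-59323345, plus strand: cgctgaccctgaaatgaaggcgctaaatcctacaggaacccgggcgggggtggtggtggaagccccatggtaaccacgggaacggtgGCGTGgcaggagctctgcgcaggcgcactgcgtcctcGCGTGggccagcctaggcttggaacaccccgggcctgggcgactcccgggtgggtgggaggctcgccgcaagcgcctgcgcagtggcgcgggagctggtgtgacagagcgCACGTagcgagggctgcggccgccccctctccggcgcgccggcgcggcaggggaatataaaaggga
P4ha2, chr11:54100674-54100973, plus strand: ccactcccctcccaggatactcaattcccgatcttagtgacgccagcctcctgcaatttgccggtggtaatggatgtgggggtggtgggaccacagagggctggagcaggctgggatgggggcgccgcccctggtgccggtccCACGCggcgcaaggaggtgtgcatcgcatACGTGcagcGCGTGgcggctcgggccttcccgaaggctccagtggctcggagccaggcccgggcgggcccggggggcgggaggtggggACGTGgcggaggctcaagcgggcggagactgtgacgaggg
P4hb, chr11:120573204-120573503, minus strand: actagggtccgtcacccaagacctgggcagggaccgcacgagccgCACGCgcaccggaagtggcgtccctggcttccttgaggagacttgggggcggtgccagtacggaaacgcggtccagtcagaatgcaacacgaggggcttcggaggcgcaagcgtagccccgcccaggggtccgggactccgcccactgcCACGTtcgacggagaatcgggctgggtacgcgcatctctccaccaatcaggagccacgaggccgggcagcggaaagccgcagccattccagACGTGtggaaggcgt
Plod3, chr5:136986769-136987068, plus strand: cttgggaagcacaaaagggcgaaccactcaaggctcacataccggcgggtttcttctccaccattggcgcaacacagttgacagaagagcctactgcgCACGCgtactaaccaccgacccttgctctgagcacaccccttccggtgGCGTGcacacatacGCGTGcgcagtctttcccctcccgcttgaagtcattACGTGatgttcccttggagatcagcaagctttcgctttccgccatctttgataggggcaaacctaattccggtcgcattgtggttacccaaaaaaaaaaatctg
P4ha1 held 3 matches, P4ha2 4, P4hb 3 and Plod3 4, and P3h1 (in each of 2 windows) and Plod1 held 2. The windows shown are thus those with the most matches. Of all 32851 promoter windows of this length, 43.8% held at least 1 match and 8.93% held at least 3. These windows were not matched to the genes shown by base composition. In line 2 against lines 1 and 3, P4ha1, P4ha2 and Plod3 were called, and P4hb, P3h1 and Plod1 were not. Plod2, Lox, Loxl1 and Loxl2 had no window. Whether the matches bear on the differences was not tested. A match is a description of the letters and not a binding site.

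P3h1 encodes a prolyl 3-hydroxylase that works in a complex with Crtap and Ppib. Its signal was 251 and 194 in line 1, 276 and 215 in line 2, 278 and 176 in line 3, and 267 and 325 in ES cells. Both arrays of line 1 were below both ES arrays, and all other groups overlapped. Against ES cells the differences of lines 1, 2 and 3 were -0.40, -0.26 and -0.39 (SE 0.22 each), and none passed the test (limma adjusted p = 0.456, 0.43 and 0.388). A further P3h1 probe set differed by -0.14 ± 0.20, -0.27 ± 0.20 and -0.01 ± 0.20 in lines 1, 2 and 3. The partners of the complex differed little over the mean of the 3 lines, with -0.05 for Crtap and -0.04 for Ppib, and neither was called.

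Among the lysyl hydroxylases, Plod2 had the widest range of group means, 1.74 on the log2 scale. It encodes the enzyme that hydroxylates lysines in the telopeptides at the chain ends and so sets the type of cross-link. Signals of Plod2 were 722 and 691 in line 1, 1596 and 1457 in line 2, 428 and 469 in line 3, and 632 and 641 in ES cells. As for P4ha1, no 2 groups overlapped and the order was line 2, line 1, ES cells, line 3. Plod2 rose 2.37-fold in line 2 over ES cells (1.24 ± 0.10 on the log2 scale; limma adjusted p = 1.96e-06). In line 3 Plod2 fell 1.41-fold below ES cells (-0.50 ± 0.10 on the log2 scale; limma adjusted p = 0.0118). The line 3 call was lost without ES replicate 1 (limma adjusted p = 0.0895), without ES replicate 2 (0.0891) and without line 3 replicate 1 (0.0925), and its adjusted p ranged from 0.0111 to 0.173 over 18 alternatives. Line 1 differed from ES cells by 0.15 ± 0.10 (limma adjusted p = 0.547).

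The other Plod2 probe set, 1416686_at, gave 282 and 269 in line 1, 656 and 714 in line 2, 245 and 220.1 in line 3, and 228 and 249 in ES cells. It rose in line 2 as well, by 1.47 ± 0.13. In line 3 the probe sets disagreed. The set standing for the gene differed from ES cells by -0.50 ± 0.10 and the other by -0.04 ± 0.13, so the fall of Plod2 in line 3 rests on 1 of its 2 probe sets.

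Plod1 and Plod3 encode the other lysyl hydroxylases, and the Plod3 enzyme also attaches sugars to hydroxylysine. Plod3 had signals of 248 and 357 in line 1, 429 and 436 in line 2, 248 and 287 in line 3, and 337 and 326 in ES cells. Line 2 was above all other arrays, line 1 spanned the ES values, and both arrays of line 3 were below both ES arrays. The difference of line 2 from ES cells, 0.37 ± 0.16, did not pass the test (limma adjusted p = 0.117), nor did that of line 3, -0.30 ± 0.16. Plod1 had signals of 125 and 145 in line 1, 220.1 and 155 in line 2, 113 and 185 in line 3, and 162 and 183 in ES cells. Its arrays overlapped between groups neighbouring in mean, although both arrays of line 1 were below both ES arrays (-0.33 ± 0.24; limma adjusted p = 0.611). The line 2 difference of Plod1 from ES cells was 0.10 ± 0.24 (95% interval -0.43 to 0.62).

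The lysyl oxidases differed among themselves, and Lox and Loxl1 lay near the floor. Gm21451/Loxl2 had signals of 116 and 117 in line 1, 271 and 290.1 in line 2, 60.3 and 83.0 in line 3, and 92.7 and 80.6 in ES cells. Line 2 was above every other array, line 1 above ES cells, and line 3 overlapped ES cells. The Loxl2 enzyme is known to cross-link basement membrane collagen. The joint signal rose 2.96-fold in line 2 over ES cells (1.57 ± 0.22 on the log2 scale; limma adjusted p = 0.000226). The other probe set of the pair, 1452436_at, gave 46.4 and 60.9 in line 1, 121 and 109 in line 2, 17.2 and 12.9 in line 3, and 31.6 and 34.1 in ES cells. Here ES cells and line 3 lay under the floor. The geometric mean of line 2 was at least 3.1-fold higher than ES cells, counted from the floor of 37.1 as the ES level. That bound leaves out the spread between arrays. Since this set passed the filter only through lines 1 and 2, where it is high, the bound gives no further support.

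Lox encodes the founding lysyl oxidase of fibrillar collagen and elastin, and its pattern was different. Its signal was 62.5 and 46.8 in line 1, 28.3 and 23.3 in line 2, 49.5 and 93.8 in line 3, and 21.9 and 20.7 in ES cells. Only lines 1 and 3 exceeded the floor, and Lox entered the test through those 4 arrays. Counted from the floor as the ES level, the geometric mean of the Lox signal was at least 1.46-fold higher in line 1. In line 3 it was at least 1.84-fold higher. These bounds leave out the spread between arrays, and neither difference passed the test (limma adjusted p = 0.322 and 0.134). The other Lox probe sets exceeded the floor in 0 and 1 arrays. Loxl1, which acts mainly on elastin, had signals of 48.9 and 62.5 in line 1, 62.9 and 83.0 in line 2, 23.0 and 40.9 in line 3, and 20.5 and 39.3 in ES cells. Both arrays of lines 1 and 2 were above both ES arrays, and line 3 overlapped ES cells. The Loxl1 difference from ES cells was 1.04 ± 0.41 in line 2 (limma adjusted p = 0.0838) and 0.72 ± 0.41 in line 1 (limma adjusted p = 0.48).

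**Figure D2:**
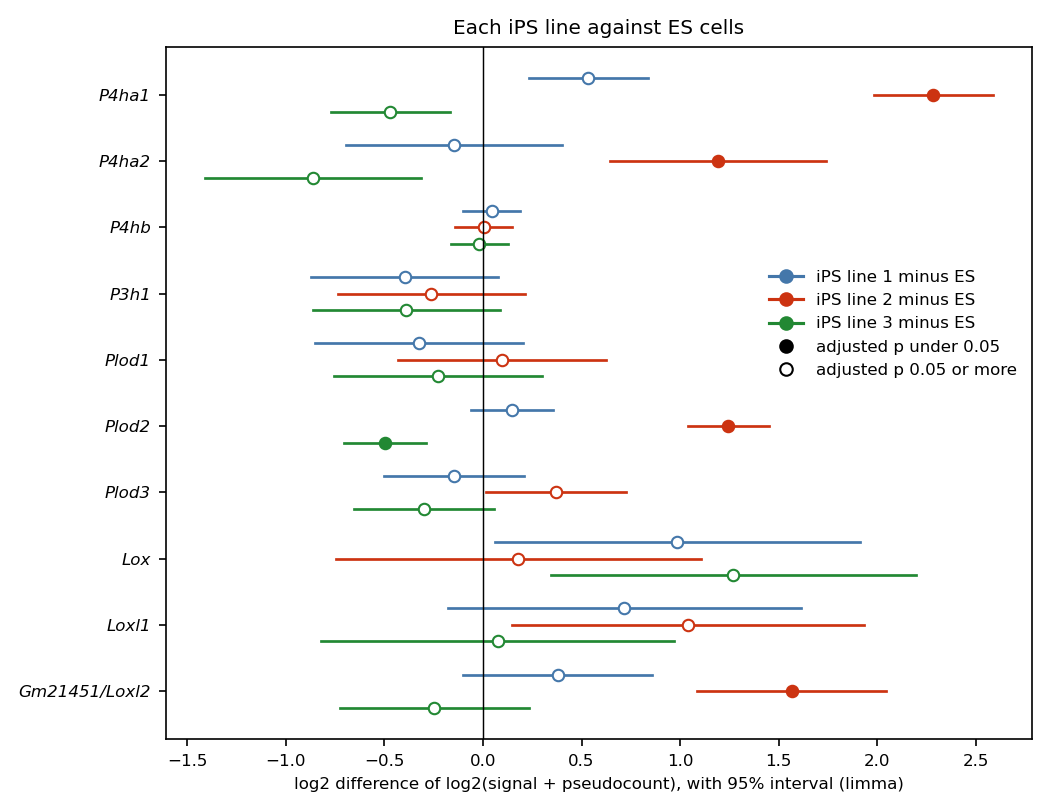
Log2 difference of each iPS line from ES cells (x axis, log2 units) for the 10 genes, with 95% intervals from limma and filled points where the adjusted p is under 0.05. Filled points are P4ha1, P4ha2, Plod2 and Gm21451/Loxl2 in line 2 and Plod2 in line 3, the P4hb intervals all lie between -0.16 and 0.19, and Lox in line 2 and in ES cells is under the floor.

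Compared as a whole with ES cells, the 3 iPS lines had 2 of the 10 genes called, P4ha1 and Plod2, both higher, while 7.3% of all genes were called. The mean of the 3 lines was above ES cells by 0.78 ± 0.11 for P4ha1 (limma adjusted p = 0.00118) and by 0.30 ± 0.08 for Plod2 (limma adjusted p = 0.0367). For both genes the iPS arrays overlapped the ES arrays, with both line 3 arrays below them. With every probe set tested, the other P4ha1 set, 1426519_at, differed by 0.35 ± 0.24 and was not called (limma adjusted p = 0.485). The set standing for Plod2, 1416687_at, was not called there either (limma adjusted p = 0.0558), while the other Plod2 set was. With line 2 left out, the mean of lines 1 and 3 differed from ES cells by 0.03 for P4ha1 (limma adjusted p = 0.936) and by -0.17 for Plod2 (limma adjusted p = 0.351), and 0 of the 10 genes were called. The Plod2 call was also lost when ES replicate 1 (0.235), ES replicate 2 (0.179), line 1 replicate 1 (0.069), line 1 replicate 2 (0.0508), line 2 replicate 1 (0.0698) or line 3 replicate 2 (limma adjusted p = 0.0709) was left out. Over 19 alternatives the limma adjusted p ranged from 0.00748 to 1 for Plod2 and from 0.000689 to 1 for P4ha1. With each iPS line and the ES line as 1 sample each, limma called 0 of all 14005 genes, and 280 genes but 0 of the 10 passed an unadjusted p of 0.05. With 1 ES sample that design is too small for the outcome to bear on single genes.

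Among the iPS lines themselves, line 2 was set against the mean of lines 1 and 3, which involves no ES array. Here 5 of the 10 genes rose in line 2 and 0 fell, while 32.6% of all genes were called. The medians were 0.62 over the 10 genes and 0.08 over all genes. P4ha1 rose 4.76-fold (2.25 ± 0.12 on the log2 scale; limma adjusted p = 9.64e-08) and P4ha2 3.24-fold (1.70 ± 0.22; limma adjusted p = 8.41e-05). Plod2 rose 2.67-fold (1.42 ± 0.08) and Gm21451/Loxl2 2.83-fold (1.499 ± 0.19). Plod3, which was not called against ES cells, rose 1.51-fold over the other iPS lines (0.60 ± 0.14; limma adjusted p = 0.00604). In all 5 genes both line 2 arrays exceeded all 4 arrays of lines 1 and 3. P4hb differed by -0.01 (95% interval -0.13 to 0.12).

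For Lox both line 2 arrays lay under the floor and below all 4 arrays of lines 1 and 3. Since its probe set entered the test through lines 1 and 3, where it is high, only a bound is given. Line 2 was at least 1.64-fold lower than the geometric mean of lines 1 and 3, counted from the floor and leaving out the spread between arrays. The difference did not pass the test (limma adjusted p = 0.0689). The adjusted p ranged from 0.0401 to 0.242 over 18 alternatives and was 0.0484 without line 3 replicate 1, so no call is made for Lox.

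Line 1 and line 3 also differed. P4ha1 was 2.00-fold higher in line 1 than in line 3 (1.00 ± 0.14 on the log2 scale; limma adjusted p = 0.00292) and Plod2 1.56-fold higher (0.64 ± 0.10; limma adjusted p = 0.00477). These were 2 of the 10 genes, with 1.41% of all genes called. Without the intensity trend neither was called (limma adjusted p = 0.0857 for P4ha1 and 0.113 for Plod2), and the P4ha1 adjusted p ranged from 0.00179 to 0.0857 over 18 alternatives. The Plod2 call was lost without line 1 replicate 1 (limma adjusted p = 0.0623) or without line 3 replicate 1 (0.0503), and its adjusted p ranged from 0.00435 to 0.113 over 18 alternatives. The other Plod2 probe set, 1416686_at, differed by 0.23 ± 0.13 (limma adjusted p = 0.545), so the Plod2 call rests on 1 of its 2 probe sets. The other P4ha1 probe set, 1426519_at, differed by 0.74 ± 0.29 with line 3 under the floor, and was not called (limma adjusted p = 0.331). The P4ha1 call therefore rests on 1 of its 2 probe sets as well. P4ha2 and Gm21451/Loxl2 were higher in both arrays of line 1, by 0.71 ± 0.25 and 0.63 ± 0.22, without passing the test (limma adjusted p = 0.221 and 0.216).

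Every probe set was also tested separately. In line 2 against ES cells 7 of the 15 probe sets were called higher, both sets each of P4ha1, Plod2 and Gm21451/Loxl2 and the single set of P4ha2, with 21.3% of 25735 probe sets called. Of these, 1452436_at passed the filter only through lines 1 and 2, where it is high, so its calls give no further support. In line 2 against lines 1 and 3 the Plod3 set joined these, giving 8 of 15, with 26.4% called. In line 3 against ES cells 1 of the 15 was called, Plod2 1416687_at, with 2.46% called. For the mean of the 3 lines 2 of the 15 were called, P4ha1 1452094_at and Plod2 1416686_at (0.54 ± 0.11), with 4.83% called. The set standing for Plod2, 1416687_at, was not called in that comparison (0.30 ± 0.08; limma adjusted p = 0.0558). Line 1 against line 3 also gave 2 of 15, P4ha1 1452094_at and Plod2 1416687_at, with 0.715% called, and line 1 against ES cells gave 0 of 15, with 1.35% called.

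**Figure D3:**
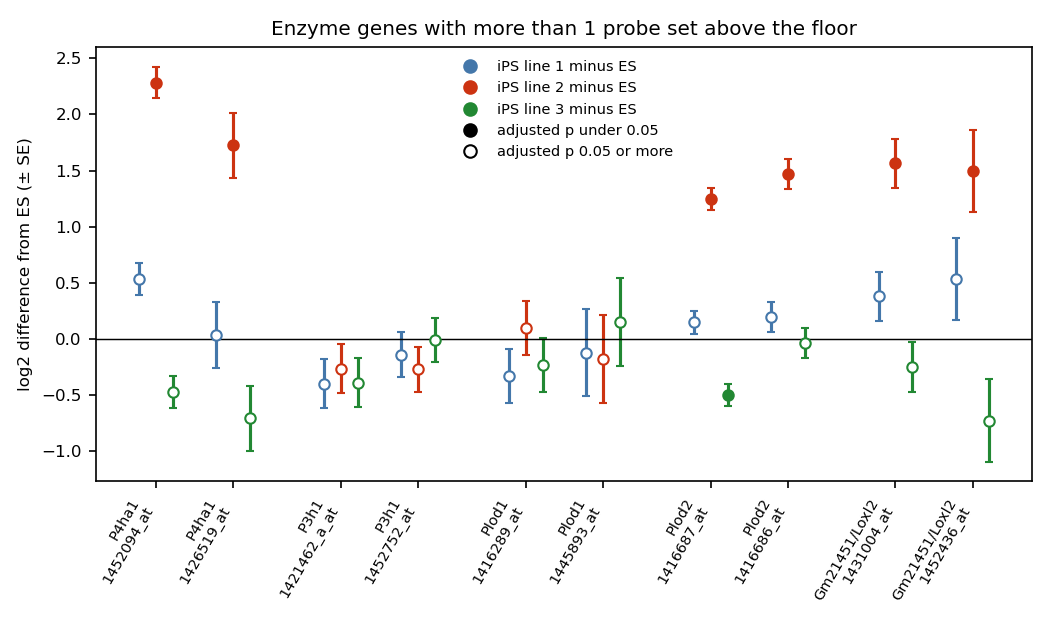
Log2 difference from ES cells (y axis, log2 units, ± SE) for the 5 genes with 2 probe sets above the floor, with iPS lines 1, 2 and 3 in colour and filled points at an adjusted p under 0.05. Both sets of P4ha1, Plod2 and Gm21451/Loxl2 are filled in line 2, while the Plod2 sets give -0.50 and -0.04 in line 3.

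The rest of the collagen pathway was tested alongside. Of 8 further genes of the same enzyme families 6 were measured, and in line 2 against ES cells Colgalt1 rose and P4htm fell. That is 2 of 6, beside 26.7% of all genes called. Colgalt1, the collagen galactosyltransferase that acts after the lysyl hydroxylases, differed by 0.35 ± 0.09 from ES cells and by 0.57 ± 0.08 from lines 1 and 3 (limma adjusted p = 0.00976 and 9.36e-05). P4htm, a membrane-bound prolyl 4-hydroxylase that is not a collagen enzyme, differed by -0.78 ± 0.18 (limma adjusted p = 0.00569). The medians of these 6 genes were -0.31 against ES cells and -0.06 against lines 1 and 3.

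Of 17 measured genes for collagen chaperones, processing and secretion, 2 rose and 3 fell in line 2 against lines 1 and 3, with a median of 0.06. This count of 5 in 17 is close to the 32.6% of all genes called. Ero1a, the oxidase that recharges protein disulfide isomerase, had signals of 1926 and 1728 in line 1, 5588 and 5329 in line 2, 900.1 and 924 in line 3, and 1513 and 1471 in ES cells. It followed the order of P4ha1 and Plod2, with a difference of 2.07 ± 0.07 in line 2 against lines 1 and 3. Serpinh1, the collagen-specific chaperone Hsp47, behaved differently, since it rose in every iPS line over ES cells. It had signals of 1687 and 1674 in line 1, 2019 and 2035 in line 2, 1572 and 1539 in line 3, and 1166 and 1122 in ES cells. The mean of the 3 lines was 0.60 ± 0.06 above ES cells (limma adjusted p = 4.65e-05), and the 3 lines were each called. Pcolce2, an enhancer of procollagen processing, fell in line 2 against lines 1 and 3 by 0.79 ± 0.08 on the log2 scale. The protein disulfide isomerase Pdia3 fell there by 0.23 ± 0.05.

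Of 23 measured collagen chains 2 rose and 1 fell in line 2 against lines 1 and 3, with a median of 0.22, beside 32.6% of all genes called. Col4a2, a chain of basement membrane collagen, differed by 0.88 ± 0.22 (limma adjusted p = 0.00842) and Col5a3 by 1.03 ± 0.27 (limma adjusted p = 0.0118). Col18a1, which carries endostatin, was the chain that fell, by 0.29 ± 0.08. Most of the 23 chains lay near the floor of 37.1, where differences are imprecise. Col5a3 had 73.0 and 51.6 in line 1, 103 and 128.5 in line 2, and 39.05 and 41.5 in line 3. The part of low signal in the count and median of the chains was not tested.

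Genes known to be induced by hypoxia outside the collagen pathway were listed for comparison, with earlier results of these data known. In line 2 against lines 1 and 3, 20 of 24 rose and 1 fell, with a median of 0.81, beside 32.6% of all genes called. Against ES cells 19 rose and 1 fell in line 2 (median 0.87), 8 rose and 0 fell in line 1 (median 0.18), and 1 rose and 6 fell in line 3 (median -0.16). The shares of all genes called in these were 26.7% in line 2, 2.33% in line 1 and 4.17% in line 3. Bnip3, a mitophagy receptor, had signals of 3085 and 3017 in line 1, 13390 and 12050 in line 2, 1244 and 1260 in line 3, and 1838 and 1938 in ES cells. Egln3, an oxygen-sensing prolyl hydroxylase, differed by 2.03 ± 0.08 between line 2 and lines 1 and 3, and Ddit4, an inhibitor of growth signalling, by 2.62 ± 0.06.

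**Figure D4:**
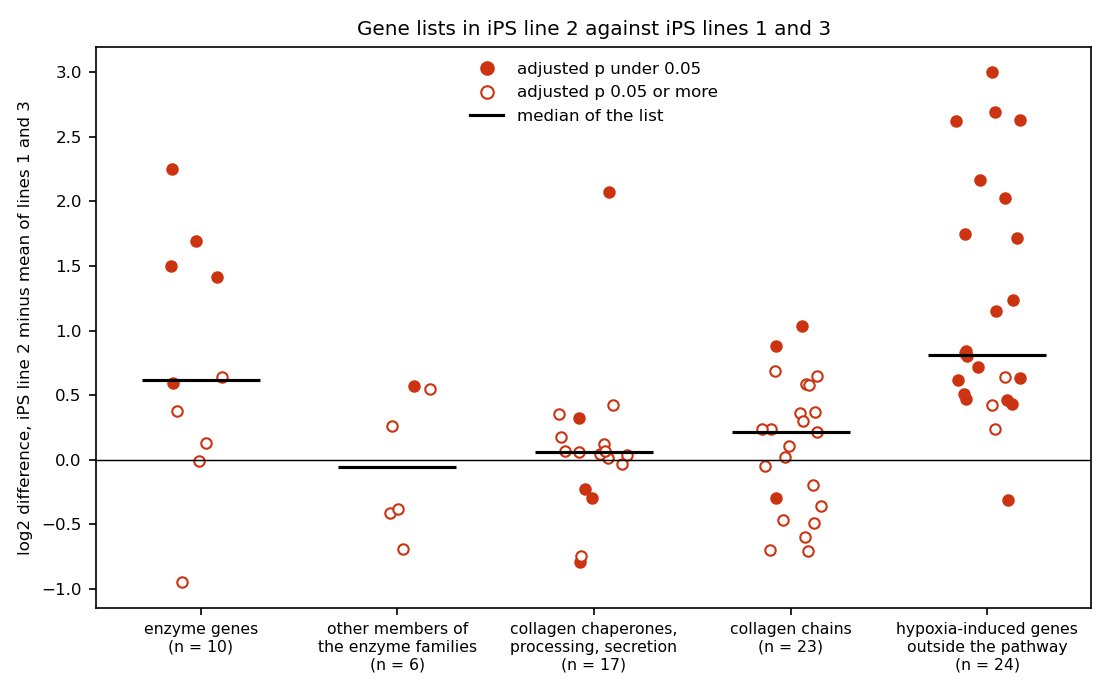
Log2 difference of iPS line 2 from the mean of lines 1 and 3 (y axis, log2 units) for each measured gene of 5 lists, with filled points at a limma adjusted p under 0.05 and bars at the list medians. Medians are 0.62 for the 10 enzyme genes, -0.06 for other members of their families, 0.06 for chaperones, processing and secretion, 0.22 for collagen chains and 0.81 for hypoxia-induced genes. Most of the collagen chains have signals near the floor of 37.1.

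Of 6 transcripts for the hypoxia-inducible factors and their regulators, 2 rose and 2 fell in line 2 against ES cells, beside 26.7% of all genes called. Hif1a fell in line 2 against ES cells by 0.43 ± 0.06 (limma adjusted p = 0.000177) and Epas1 by 1.02 ± 0.06, both oxygen-regulated alpha subunits, while their partner Arnt rose by 0.54 ± 0.10. Vhl, which targets the alpha subunits for degradation, rose by 0.37 ± 0.10, and Hif1an (0.29 ± 0.12) and Egln2 (-0.25 ± 0.10) did not pass the test. Epas1 fell in lines 1 and 3 too, by 0.37 and 0.31.

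Across the 8 arrays the log2 values of the 10 genes were compared pairwise as a description. The arrays are 4 groups of 2 and line 2 stands apart, so a high correlation here mainly records a shared difference of that line. P4ha1 correlated with Plod2 at 0.991, with Gm21451/Loxl2 at 0.987, with P4ha2 at 0.908, with Plod3 at 0.818 and with Loxl1 at 0.797. Its correlation was 0.112 with P4hb and -0.44 with Lox. Among all other genes tested, the 3 most like P4ha1 over the 8 arrays were Aldoc (0.998), Bnip3 (0.998) and Tpi1 (0.998). For P4ha2 they were Cadm4 (0.989), Ptpra (0.985) and Plekhb2 (0.985), and for Gm21451/Loxl2 Dnm1l (0.999), Dip2a (0.994) and Acp5 (0.993). The measure ignores size: Dnm1l differed by 0.39 in line 2 from ES cells where Gm21451/Loxl2 differed by 1.57.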

How the data were processed

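RNA from 8 samples was measured on Affymetrix 3' expression arrays. The authors deposited a linear intensity signal for each probe set. The submitters' processing notes name MAS5, and its version is unknown here. After leaving out 2% of values at each end, the mean signal was 500.004 on all 8 arrays. They were used without a new scaling. The platform annotation supplied with the values gave 1 symbol for 34945 of 45101 probe sets and several for 932, and 64 array controls were left out. log2(signal + 12.4) was analysed, the pseudocount being the 20th percentile of the deposited signals. A single limma fit (3.58.1, R 4.3.3; group means of all 8 arrays, eBayes with an intensity trend, 4 residual and 12.4 moderated degrees of freedom, two-sided) covered 14004 genes with 1 symbol and the Gm21451/Loxl2 feature, with Benjamini-Hochberg adjustment over all 14005. It was tested on simulated data. Errors are SE for differences. The 10 genes and the gene lists were chosen with earlier results of these data known. From each list, the text names genes among the 4 of smallest adjusted p for the mean of the 3 lines and for line 2 against lines 1 and 3, all of the hypoxia-inducible factor list, the partners of P3h1, Pou5f1, and marker genes under the floor. Pattern likeness was ranked for the 3 genes with the widest range of group means. Alternatives covered scaling, pseudocount, filter, probe set rule, variance trend, replicate block, arrays in the fit, left-out arrays and left-out line 2. The replicate numbers did not pair arrays: deviations of same-numbered arrays correlated at -0.01 to 0.03 over 6 group pairs. The number of arrays, 2 per group, limits the precision.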

Additional observations from a re-analysis of the deposited data

Results flagged for a closer look

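The iPS lines differed from each other in 7 results by the test of the difference itself. In iPS line 2 against the mean of lines 1 and 3, the log2 differences were 2.25 for P4ha1, 1.70 for P4ha2, 1.42 for Plod2, 1.499 for Gm21451/Loxl2 and 0.60 for Plod3. In line 1 against line 3 they were 1.00 for P4ha1 and 0.64 for Plod2. There the other probe sets gave 0.74 for P4ha1 and 0.23 for Plod2, and neither was called. The beta-actin 3'/5' ratio, 1.74 and 1.79 in line 2 and 1.49 to 1.62 elsewhere, moved with the first 5 of these, and its part in them was not tested.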

How the results depend on the processing

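The 10 genes gave 60 differences, refitted 1090 times in all. Of 14 called differences 9 stayed called under every alternative run, namely the 4 of line 2 against ES cells and the 5 of line 2 against lines 1 and 3. Calls were lost 21 times without a change of sign and gained 4 times, and 42 refits changed the sign. Of these 42, 1 concerned a called difference, Plod2 for the mean of the 3 lines without line 2, and it lost its call too. The mean of the 3 lines had 2 called genes as reported, 1 with arrays centred on their median, 1 without the intensity trend, 0 with line means as samples, 0 without line 2, and 1 to 2 with an array left out. Its count over all genes was 1022, and 804 with centring, 289 without the trend and 492 without line 2. Line 3 against ES cells had 1 called gene, then 0 when probe sets were averaged, 0 without the trend, and 0 to 1 with an array left out. Line 1 against line 3 had 2 called genes, then 1 when probe sets were averaged, 0 without the trend, and 1 to 2 with an array left out. Without the trend all genes called numbered 22 in line 3 against ES cells, where 584 were called with it, 17 against 198 in line 1 against line 3, and 48 against 327 in line 1 against ES cells. Without line 2 the mean difference was -0.50 for P4ha2 and -0.17 for Plod2. Quantile normalization gave -0.066 for Plod1 in line 2 against ES cells, and -0.047 for P3h1 and 0.054 for P4hb in line 2 against lines 1 and 3. Averaging probe sets gave -0.039 for Plod1 in line 2 against ES cells and -0.033 for P3h1 in line 2 against lines 1 and 3. Centring gave P4hb -0.086 in line 2 and 0.027 in line 3 against ES cells, and moved the median of all genes in line 2 against lines 1 and 3 to -0.05, from 0.08. With an array left out, uncalled differences that changed sign ranged as follows. For the mean of the 3 lines, P4ha2 ranged from -0.12 to 0.24, P4hb from -0.019 to 0.039 and Plod3 from -0.11 to 0.059. For line 1 against ES cells, P4ha2 ranged from -0.40 to 0.10, P4hb from -0.036 to 0.12 and Plod3 from -0.40 to 0.10. For line 2 against ES cells, P4hb ranged from -0.026 to 0.032 and Plod1 from -0.14 to 0.33. For line 3 against ES cells, Loxl1 ranged from -0.25 to 0.40, P4hb from -0.067 to 0.030 and Plod1 from -0.55 to 0.097. For line 2 against lines 1 and 3, P3h1 ranged from -0.041 to 0.30 and P4hb from -0.050 to 0.031. For line 1 against line 3, Lox ranged from -0.67 to 0.11, P3h1 from -0.32 to 0.30, P4hb from -0.018 to 0.14, Plod1 from -0.42 to 0.23 and Plod3 from -0.098 to 0.41. The 4 gained calls were all of Lox in line 2 against lines 1 and 3, where line 2 is under the floor, and nothing is drawn from them. With replicate number as a block the called genes numbered 2 for the mean, 0, 4 and 1 for lines 1, 2 and 3 against ES cells, 5 for line 2 against lines 1 and 3 and 2 for line 1 against line 3, as without it. The causes of these changes were not tested. Probe sets near the floor are limited by signal over background. They were those of Lox and Loxl1, 1452436_at of Gm21451/Loxl2, 1445893_at of Plod1 and, outside line 2, 1426519_at of P4ha1.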
